A study of Mus musculus with 16 samples.

Results

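The cytosolic ribosomal protein genes are those that encode the proteins of the ribosome outside the mitochondrion. They were taken as the mRNA genes whose name starts with Rpl or Rps and a number, or is Rplp0, Rplp1, Rplp2 or Rpsa, without pseudogene names and without the S6 kinases (names that start with Rps6k). Of 23235 gene names in the mRNA table, 92 met this rule, and 90 of them had a mean of 10 or more counts over the 16 mice, out of 14869 genes that passed the same minimum. The 2 left out were Rpl39l (mean 6.44 counts) and Rpl37rt (mean 7.38 counts). The 90 genes are 46 of the large subunit, 31 of the small subunit, 12 paralogues or retrotransposed copies, and Rps19bp1, which meets the name rule but encodes a protein that binds Rps19 and is not part of the ribosome. Among the copies, Rpl32l, Rpl6l, Rps12l1, Rps3a2, Rps3a3 and Rps4l are annotated as processed pseudogenes, although their names do not mark them as such.

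Skeletal muscle RNA came from male C57BL/6J mice that were 6 weeks old at the start, with 4 mice in each of 4 groups. The control group had a normal diet. The HFD group was fed a diet with 60% fat for 8 weeks. The HFD + RSV and HFD + metformin groups had the same diet and received resveratrol (RSV, a plant polyphenol) or metformin (a glucose-lowering drug) for 6 weeks. The labels name neither the muscle nor any transgene, and a replicate here is a separate mouse with its own library. Whether the sequenced mice were among those of the study that received insulin before tissue collection is not given in the sources used here. All 4 HFD mice have the same first number in their labels, which none of the other 12 mice has. In each other group some mice also share a first number, but not all of them do. If that number marks a cage or batch, its effect cannot be told apart from that of the diet or of either drug.

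Total counts per mouse over the mRNA and lncRNA tables ranged from 20281801 to 34021101. The sum of 9 skeletal muscle fibre markers (Acta1, Ckm, Myh4 and others) was 57476 to 109914 counts scaled to a common library size (CPM) in the 16 mice. The labels' extraction text speaks of another tissue, the retina, and of 8 retina markers 7 were below the count minimum and the remaining 1, Sag, reached at most 1.13 CPM. Control mouse 3 and HFD + metformin mouse 3 stood apart, with 5 white adipocyte markers summing to 1121 and 1316 CPM (11.8 to 559 CPM in the other 14 mice) and with the lowest summed muscle fibre markers, at 59541 and 57476 CPM. In bulk RNA, fewer cells of a type and less RNA per cell cannot be told apart.

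A ribosome has a small subunit that decodes mRNA and a large subunit that joins amino acids, and each ribosomal protein is normally present in 1 copy per ribosome, apart from the acidic stalk proteins. Ribosomal protein mRNAs start with a run of pyrimidines (the 5′ terminal oligopyrimidine motif), through which mTORC1 signalling sets how strongly they are translated. In adult muscle fibres and heart, Rpl3 is largely replaced by its paralogue Rpl3l.

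Levels were compared between genes with FPKM, which divides counts by transcript length, summed over the transcripts of a gene. The mean FPKM over the 16 mice ranged from 1.17 for Rps13 to 309 for Rplp1, with a median of 33.7 over the 90 genes. The 5 highest were Rplp1 (309), Rplp0 (187), Rpl4 (173), Rpl3l (170) and Rps14 (168). The first pair of these encode stalk proteins, and Rpl4 and Rps14 encode core proteins of the large and small subunit. The 5 lowest were Rps23 (2.36), Rpl36a (2.15), Rps29 (1.62), Rps12l1 (1.35) and Rps13 (1.17). The highest and lowest members lay 264-fold apart in FPKM. The log2 FPKM of the 77 genes of the 2 subunits in each mouse correlated with the mean profile at Pearson r = 0.99 to 0.997. This is a description over genes that share a library and a transcript model. The mean profile includes the mouse itself and the genes span a wide range, so such values say little about their order.

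Ribosomal protein genes have many near-identical processed copies in the genome, and reads that match several places are hard to assign. The mRNA table itself listed 156 ribosomal protein pseudogenes, and 87 of them had a mean of 10 or more counts. For 84 members with a protein-coding transcript in the annotation (GENCODE M21, GRCm38), the share of the 50-base windows of the most counted coding transcript that also occur in a transcript of another gene was counted. Among the 77 subunit genes this share exceeded 90% in Rpl9 (93.3%) and Rps10 (92.4%), at mean FPKM values of 9.07 and 7.45. It was 0% in Rpl3l and in Rps19bp1, among others. The 5 subunit genes under 10% had a median FPKM of 65.9, and the 70 between 10% and 90% had a median of 37.0. Over the 77 genes Spearman's rho between the shared windows and the level was -0.197.

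**Figure D1:**
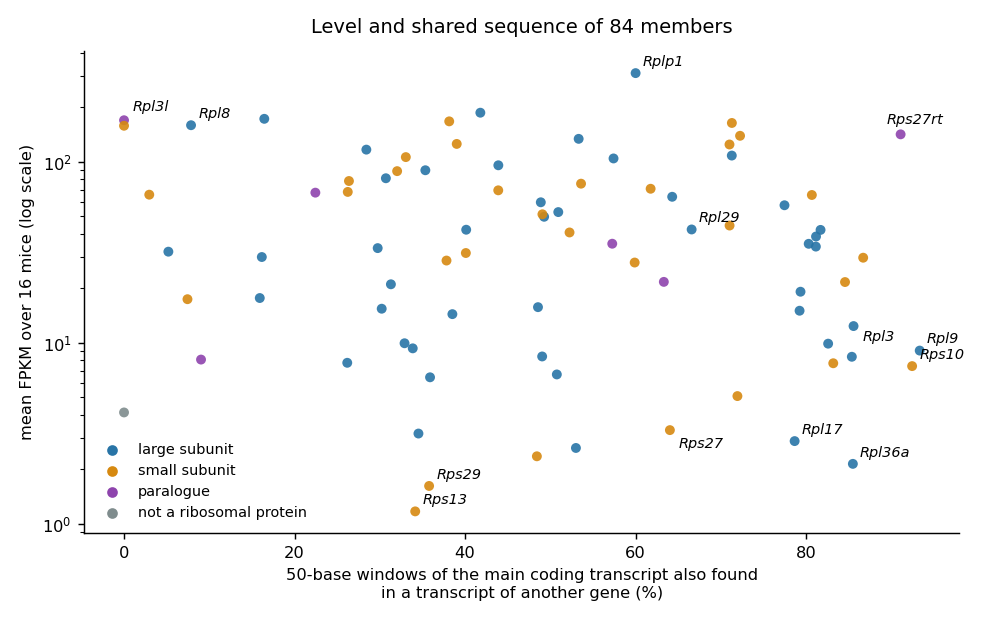
Mean FPKM over the 16 mice on a log axis against the percentage of 50-base windows of the main coding transcript that also occur in transcripts of other genes, with 1 point for each of 84 members coloured by class. Rpl3l shares no window and lies at 170 FPKM, while Rps27 lies at 3.30 and its copy Rps27rt at 142.

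Rps27 shows the extent of this. Rps27, a zinc-finger protein of the small subunit (chr3:90212522-90213651 in the files, minus strand), has introns, and Rps27rt (chr9:114982366-114982739, minus strand) is a single-exon copy of it. The coding sequences of the 2 genes, without the stop codon, are 252 bases each and differ at 0 positions, so the sequence printed for Rps27 is also that of Rps27rt. Rps27l (chr9:66946086-66949516, plus strand) is a paralogue whose coding sequence has the same length and differs from that of Rps27 at 60 bases. This is a count of bases, and the encoded proteins were not compared. Capitals mark the bases that differ between Rps27 and Rps27l in the GENCODE M21 sequences.
Rps27: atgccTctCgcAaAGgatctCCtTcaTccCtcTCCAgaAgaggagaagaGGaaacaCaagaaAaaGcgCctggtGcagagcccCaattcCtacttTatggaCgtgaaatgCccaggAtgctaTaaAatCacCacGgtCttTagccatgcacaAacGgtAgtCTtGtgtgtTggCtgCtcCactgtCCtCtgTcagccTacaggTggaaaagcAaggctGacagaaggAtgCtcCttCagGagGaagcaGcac
Rps27l: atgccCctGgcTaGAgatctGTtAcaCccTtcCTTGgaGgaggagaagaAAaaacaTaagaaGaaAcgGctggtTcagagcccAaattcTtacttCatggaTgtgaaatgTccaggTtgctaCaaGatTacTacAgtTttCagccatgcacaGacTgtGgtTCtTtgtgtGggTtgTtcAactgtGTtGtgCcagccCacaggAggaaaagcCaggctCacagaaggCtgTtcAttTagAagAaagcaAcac
The mean count was 40.8 for Rps27, 1424 for Rps27rt and 939 for Rps27l. In CPM, Rps27 was 1.69, 1.80, 2.23 and 1.40 in the control mice and Rps27rt was 60.9, 58.2, 65.0 and 61.5. In the HFD mice Rps27 was 1.51, 1.82, 1.37 and 1.42 CPM and Rps27rt 58.4, 54.1, 59.3 and 55.3 CPM. The retrotransposed copy thus carried the larger value in each of these mice, and reads from the coding part of the 2 genes cannot be told apart. The spliced gene was described here by its own row and was not merged with the copy.

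The transcript class that carried the counts also differed between members. A retained intron or a premature stop that leads to nonsense-mediated decay (NMD) is a known way in which ribosomal protein genes make non-coding transcripts. Among the 77 subunit genes the median share of counts on transcripts that GENCODE lists as protein coding was 86.8%, and 14 genes were under 50%. Rpl36a was lowest, with 4.04% on coding transcripts and 95.5% on retained-intron transcripts, followed by Rps18 with 8.26% on coding transcripts and Rps13 with 9.84%. Rpl13a, a large subunit protein, had 45.8% of its counts on NMD transcripts and 22.2% on coding ones. Rpl3, a protein at the peptidyl transferase centre, had 52.4% on coding, 35.0% on retained-intron and 12.6% on NMD transcripts. Over all 90 members together, coding transcripts held 83.3% to 86.4% of the counts in each mouse. Of the 12 paralogues and copies, 6 had no coding transcript in the annotation. Of these, Rpl32l, Rpl6l, Rps12l1, Rps3a2 and Rps3a3 are listed there as processed pseudogenes. Rps4l is listed with a processed transcript and a transcribed processed pseudogene.

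**Figure D2:**
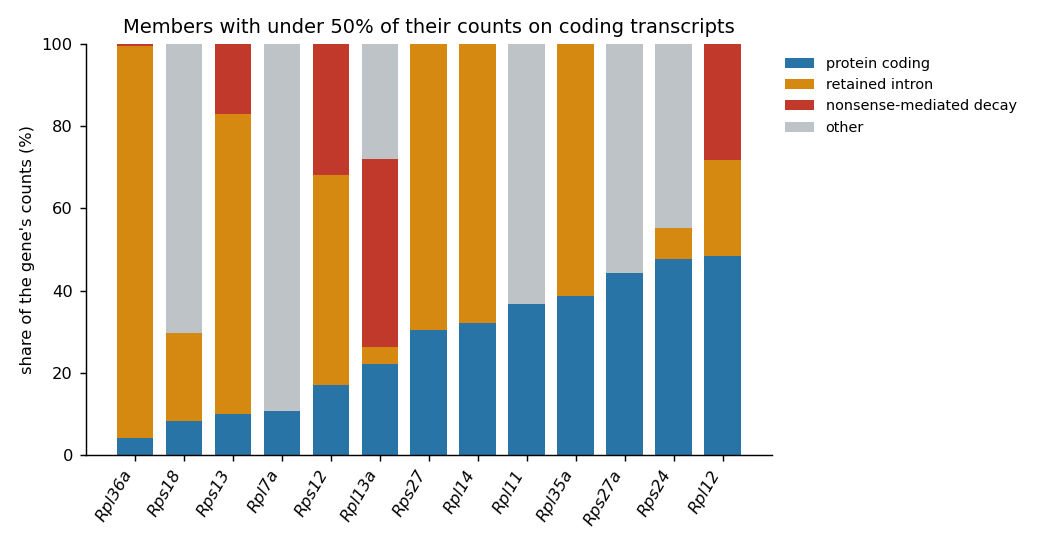
Share of each gene's counts, in percent over the 16 mice, on protein-coding, retained-intron, nonsense-mediated decay and other transcripts, as stacked bars for 13 of the members with under 50% on coding transcripts. Rpl36a is lowest at 4.04% coding and Rpl13a has a decay share of 45.8%.

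Promoters were taken from RefSeq (GRCm38.p6) as 250 bases before to 50 after the annotated start, and 65 of the 90 members had an entry. Among the 57 subunit genes with an entry, 26 (45.6%) had a run of 8 or more pyrimidines on the gene's strand between 15 bases before and 25 after the start, against 15.4% of the 10373 tested genes with an entry. The letters CCGGAAG, the core of ETS factor motifs, were present on either strand in 23 (40.4%), against 17.6% of all. AAGATGGC, the core of the YY1 motif, was in 4 (7.02%, all genes 4.58%), GGGCGG, the SP1 core, in 35 (61.4%, all genes 64.2%), and TATAAA in 5 (8.77%, all genes 7.34%). Each string was counted on its own, and a match is a description of the letters and not of binding. The promoters of Rpl3l and of 3 subunit genes are shown because they span the range seen, from none of the strings to several. Rpl3l and Rpl15 were also among the members whose HFD and control mice did not overlap. Capitals mark any of these strings on either strand and, if it has 8 or more letters, the longest pyrimidine run within the stretch from 15 bases before to 25 after the start. Runs were counted inside that stretch only, so a run may continue beyond the capitals, and runs elsewhere in the window are not marked. The windows are chr17:24727576-24727875 (plus strand) for Rpl3l, chr9:64173137-64173436 (plus) for Rpl4, chr5:115559217-115559516 (plus) for Rplp0 and chr14:18270937-18271236 (minus) for Rpl15.
Rpl3l: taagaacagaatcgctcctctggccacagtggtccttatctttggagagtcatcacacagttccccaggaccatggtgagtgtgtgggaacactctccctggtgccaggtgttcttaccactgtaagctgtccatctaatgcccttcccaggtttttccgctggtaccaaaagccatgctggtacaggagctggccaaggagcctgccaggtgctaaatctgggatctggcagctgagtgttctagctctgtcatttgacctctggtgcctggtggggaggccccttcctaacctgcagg
Rpl4: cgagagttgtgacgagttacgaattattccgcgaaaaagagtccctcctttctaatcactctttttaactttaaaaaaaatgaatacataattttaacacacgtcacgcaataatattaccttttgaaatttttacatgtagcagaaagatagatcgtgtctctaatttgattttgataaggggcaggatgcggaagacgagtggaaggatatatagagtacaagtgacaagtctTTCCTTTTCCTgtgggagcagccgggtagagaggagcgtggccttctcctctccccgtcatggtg
Rplp0: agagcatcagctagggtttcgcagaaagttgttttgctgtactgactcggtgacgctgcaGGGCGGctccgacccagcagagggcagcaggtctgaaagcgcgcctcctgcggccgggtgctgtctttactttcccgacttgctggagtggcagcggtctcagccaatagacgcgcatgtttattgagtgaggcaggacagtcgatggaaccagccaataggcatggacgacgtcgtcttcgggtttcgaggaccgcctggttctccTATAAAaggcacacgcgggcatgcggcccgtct
Rpl15: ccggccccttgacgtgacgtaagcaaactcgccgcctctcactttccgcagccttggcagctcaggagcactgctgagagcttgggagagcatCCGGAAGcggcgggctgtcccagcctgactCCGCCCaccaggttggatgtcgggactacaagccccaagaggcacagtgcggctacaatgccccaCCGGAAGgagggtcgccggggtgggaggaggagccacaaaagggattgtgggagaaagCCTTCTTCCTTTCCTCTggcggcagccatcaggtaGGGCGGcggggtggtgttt
The Rpl3l window holds none of the 4 strings, and its longest pyrimidine run in the searched stretch has 5 letters. In Rpl4 the searched stretch holds 11 letters of a run that lies before the annotated start, and the window holds none of the strings. Rplp0 holds the SP1 core and the TATA string, which here lies after the annotated start. Rpl15 holds the ETS core, the SP1 core and a run of 17.

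The 90 members took a small part of the mRNA counts. Their share was 0.440%, 0.457%, 0.530% and 0.531% in the control mice, 0.423%, 0.412%, 0.419% and 0.499% in the HFD mice, 0.453%, 0.464%, 0.504% and 0.477% in the HFD + metformin mice, and 0.453%, 0.514%, 0.456% and 0.520% in the HFD + RSV mice. The HFD group had the lowest mean at 0.438% ± 0.0406 (SD, n = 4), and the control group had 0.489% ± 0.0479, with overlap through HFD mouse 4. The share is relative to what else was in the library. The 20 most abundant genes took 42.5% ± 1.94 of the counts in HFD mice and 36.7% ± 4.52 in control mice. They took 38.8% ± 4.29 in HFD + metformin mice and 40.3% ± 1.10 in HFD + RSV mice. Without those genes the members took 0.762% ± 0.0449 in HFD mice and 0.773% ± 0.0550 in control mice. The values were 0.777% ± 0.0362 in HFD + metformin mice and 0.814% ± 0.0619 in HFD + RSV mice. The part of those genes in the members' share was not tested. CPM scaled by edgeR's TMM factors, which set aside such genes, are used from here on.

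The members varied little between mice of a group. The median within-group SD of log2 CPM was 0.147 over the 90 members and 0.247 over all 14869 genes tested. The steadiest were Rpl7a (0.084), Rpl7l1 (0.094), Rps3a2 (0.097) and Rplp1 (0.097), and the least steady were Rpl29 (0.693), Rps4l (0.552), Rpl24 (0.434), Rps25 (0.423) and Rps28 (0.396). Rpl29 was assigned to different transcripts in different mice, and a coding transcript of it held 416 counts in HFD mouse 3 and 0 in the other 15 mice. The members lay mostly on 1 side of their own means in some mice and on both sides in others, such as HFD mouse 4 (42 of 90 above). HFD + RSV mouse 4 was highest, with 83 of 90 above their mean and a median deviation of 0.22 on the log2 scale, followed by control mouse 4 (75 of 90, 0.13) and HFD + metformin mouse 4 (75 of 90, 0.09). HFD + metformin mouse 1 was lowest, with 15 of 90 above and a median deviation of -0.09.

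**Figure D3:**
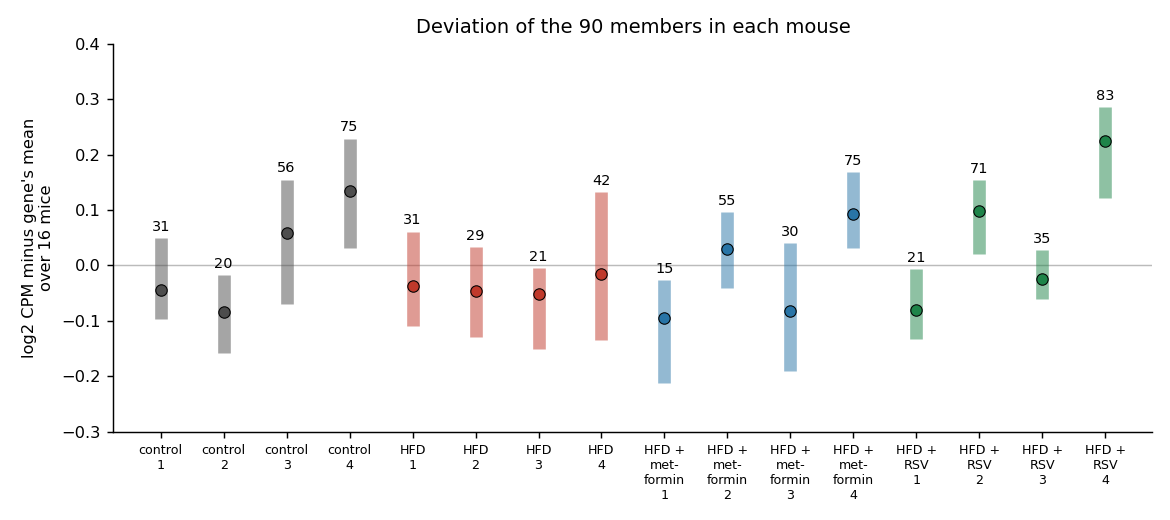
Deviation of log2 CPM from each gene's mean over the 16 mice, by mouse, with the median of the 90 members as a point, the middle 50% as a bar and the number of members above their own mean printed above. HFD + RSV mouse 4 stands highest, with a median of 0.22, and each group has mice on both sides of 0 except the HFD group, whose 4 medians lie between -0.05 and -0.02.

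The comparison of the HFD group with the control group asks what the diet did to the muscle. Of the 90 members, 0 had a Benjamini-Hochberg adjusted P < 0.05 in edgeR's quasi-likelihood test over all genes, where 2.57% of all genes did. At an unadjusted P < 0.05, 3 were higher (all genes 11.8%) and 10 were lower (all genes 12.6%), which is 14.4% of the members against 24.4% of all genes. None of these differed by more than 2-fold as well (0 of 90, all genes 4.66%). DESeq2 gave 1 member at an adjusted P < 0.05, Rpl3. The median log2FC of the members was -0.06 (all genes -0.02), and 32 of 90 were above 0 (all genes 47.7%). For 68 of the 90 the 95% interval of the log2FC lay within ±0.5, a 1.41-fold difference, and for 84 within ±1. A P that misses the threshold does not show that a gene did not differ, and the other members had wider intervals. Scaling by total counts alone shifted the median of all genes to -0.18 and left 6 members above 0 and 35 above that median. Leaving out control mouse 4 brought the members' median to -0.01 and the number above 0 to 42.

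The largest fold changes in HFD against control were those of Rpl3l, which was higher, and Rpl3, which was lower. Rpl3l (chr17:24727820-24736143) was 280, 249, 167 and 230 CPM in the control mice and 294, 328, 284 and 298 CPM in the HFD mice. It was 256, 310, 184 and 311 CPM with metformin and 287, 265, 257 and 311 CPM with RSV. Each HFD mouse was above each control mouse, but the lowest HFD mouse (284 CPM) lay only slightly above the highest control mouse (280 CPM). Both drug groups overlapped with the HFD group.

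Rpl3 (chr15:80077794-80083353) had the reverse order, with 16.6, 19.9, 29.6 and 22.8 CPM in the control mice and 12.3, 12.9, 13.8 and 16.8 CPM in the HFD mice. It was 19.7, 13.8, 30.1 and 15.4 CPM with metformin and 13.7, 14.5, 17.7 and 13.4 CPM with RSV. The control and HFD groups overlapped by HFD mouse 4 and control mouse 1. The log2FC in HFD against control was 0.38 for Rpl3l (SE 0.17, edgeR adjusted P = 0.181) and -0.67 for Rpl3 (SE 0.22, edgeR adjusted P = 0.0979), the largest difference in each direction among the 90. Over the alternative settings the adjusted P of Rpl3 ranged from 0.0477 (DESeq2) to 0.282 and that of Rpl3l from 0.102 to 0.437.

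Rpl3l made up most of the counts of this pair. Its share of the summed Rpl3 and Rpl3l counts was 94.4%, 92.6%, 84.96% and 91.0% in the control mice and 96.0%, 96.2%, 95.4% and 94.7% in the HFD mice. It was 92.9%, 95.7%, 86.0% and 95.3% with metformin and 95.4%, 94.8%, 93.6% and 95.9% with RSV. The HFD values were all above the control values, but the lowest of them (94.7%) only slightly above the highest control value (94.4%). In log2 CPM, Rpl3l minus Rpl3 was higher by 1.05 in HFD mice than in control mice (exact two-sided permutation test, P = 0.0286, the smallest that 4 against 4 can give, adjusted P = 0.206 over 18 such tests). The same difference was 0.85 in HFD + RSV against control (exact permutation P = 0.0571) and -0.65 in HFD + metformin against HFD (exact permutation P = 0.20). The 2 coding sequences have 73.0% identical positions in a global alignment, and Rpl3l shares no 50-base window with another gene, whereas 85.6% of the windows of Rpl3 occur elsewhere.

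Markers of other cells also differed in sum between the control and HFD mice. The 3 brown adipocyte markers (Ucp1, Cidea and Elovl3) summed to 25.4 to 743 CPM in the control mice and 1.3 to 3.44 CPM in the HFD mice, and the 5 white adipocyte markers to 214 to 1121 and 30.3 to 310 CPM. The 9 muscle fibre markers summed to 59541 to 99079 CPM in the control mice and to 93978 to 105601 CPM in the HFD mice. Of these 9, 6 had a log2FC above 0 and 3 below 0, so the sum does not stand for each marker. Myh4 was 54146, 27348, 28869 and 29218 CPM in the control mice and 51630 to 58861 CPM in the HFD mice. Myh7 was 2.81, 917, 457 and 523 CPM in the control mice and 2.71 to 59.3 CPM in the HFD mice. Control mouse 1, within the HFD ranges of Myh4 and Myh7, had the highest Rpl3l and lowest Rpl3 of the control mice. HFD + RSV mouse 4 went the other way for Myh7. Its Myh7 was 531 CPM, within the control range, while its Rpl3l was 311 CPM and its Rpl3 13.4 CPM. Control mouse 3 and HFD + metformin mouse 3, which had the most adipocyte marker RNA, had the lowest Rpl3l and the highest Rpl3 of the 16 mice. Without these 2 mice the log2FC in HFD against control was 0.25 for Rpl3l (edgeR adjusted P = 0.188) and -0.50 for Rpl3 (edgeR adjusted P = 0.0883), and that of Rpl3 in HFD + metformin against HFD went from 0.50 (edgeR adjusted P = 0.613) to 0.22 (edgeR adjusted P = 1.00). The part of the other cell types, or of the kind of muscle fibre sampled, in the values with all mice was not tested.

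**Figure D4:**
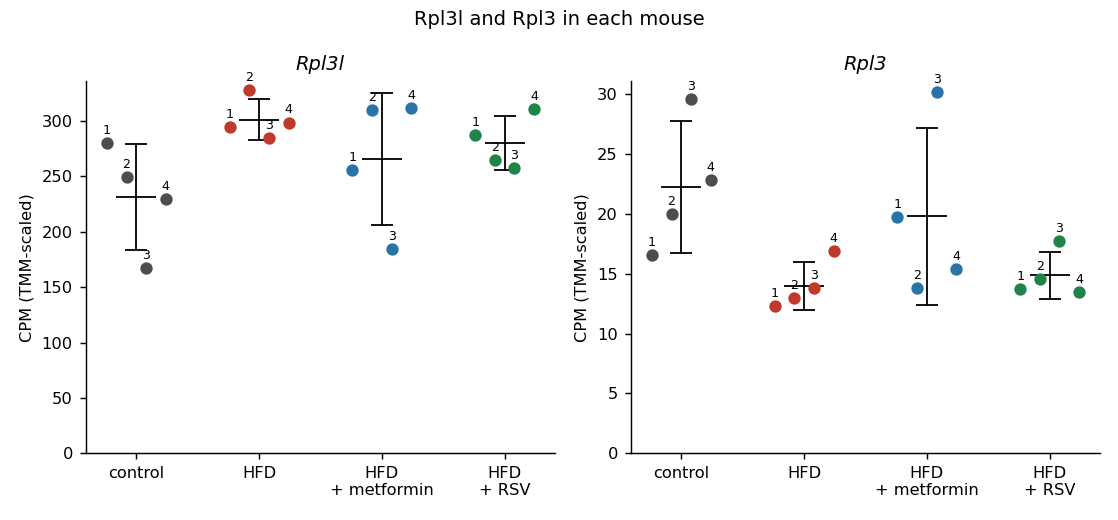
CPM of Rpl3l and Rpl3 in each of the 16 mice by group, with points numbered by mouse and bars for the mean ± SD (n = 4). The 4 HFD mice lie above the 4 control mice for Rpl3l, and mouse 3 of the control and HFD + metformin groups is lowest for Rpl3l and highest for Rpl3.

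In HFD against control, 4 further members had groups that did not overlap, 2 above and 2 below, beside Rpl3l above (all genes 8.9% above and 9.66% below). Rpl36al, a paralogue of the large subunit protein Rpl36a, was 12.4, 11.6, 11.6 and 13.3 CPM in the control mice and 15.4, 14.5, 13.9 and 16.2 CPM in the HFD mice (log2FC 0.29, SE 0.13, edgeR adjusted P = 0.170). Rpl15, a large subunit core protein, was 28.0, 25.3, 23.4 and 26.7 against 30.6, 31.0, 28.1 and 30.5 CPM (log2FC 0.22, edgeR adjusted P = 0.201). In both genes the lowest HFD mouse lay only slightly above the highest control mouse.

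Rps16, a small subunit protein near the decoding site, was 34.7, 33.1, 39.0 and 38.02 CPM in the control mice and 32.8, 27.4, 32.7 and 31.2 CPM in the HFD mice (log2FC -0.22, edgeR adjusted P = 0.162). Rpl41, the smallest ribosomal protein, was 61.8, 62.1, 74.2 and 73.1 against 57.5, 60.3, 55.6 and 59.2 CPM (log2FC -0.22, edgeR adjusted P = 0.192). Both lay just below the control values. The other members with an unadjusted P < 0.05 were lower in the HFD mean with overlap between the groups. They included Rps13 (log2FC -0.63), Rps28 (-0.64), Rpl10 (-0.31), Rps12 (-0.25), Rps19 (-0.25) and Rpl19 (-0.20). Rps13 rests on a mean of 43.8 counts, and with the counts of its listed pseudogenes added its log2FC was -0.12. By subunit, 17 of 46 large and 8 of 31 small subunit genes had a log2FC above 0.

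The comparison of the HFD + RSV group with the HFD group asks what RSV did under the diet. Again 0 members had an adjusted P < 0.05 in edgeR or DESeq2, as did 0% of all genes. At an unadjusted P < 0.05, 2 members were higher (all genes 2.84%) and 0 were lower (all genes 1.93%, either direction 4.78%), and 0 also passed 2-fold (all genes 1.02%). Fold changes were small but mostly of 1 sign, with 78 of 90 above 0 (all genes 51.2%) and a median log2FC of 0.09 (all genes 0.01). By subunit, 39 of 46 large and 29 of 31 small subunit genes were above 0, with medians of 0.06 and 0.11. Without HFD + RSV mouse 4, 63 members were above 0 and the median was 0.04. The shift was not shared by all HFD + RSV mice. The members' median deviation from their own means was 0.098 in mouse 2 (71 of 90 above) and 0.225 in mouse 4 (83 of 90). It was -0.08 in mouse 1 (21 of 90) and -0.025 in mouse 3 (35 of 90). In the HFD mice this median deviation was -0.051 to -0.015, so mouse 3 lay within the HFD range and mouse 1 below it. Markers of other cells were also higher in this comparison, with an unadjusted P < 0.05 for 4 of 4 Schwann cell markers (median log2FC 1.23) and 4 of 5 erythroid markers (median log2FC 0.93), and 0 of either list at the adjusted P. The Schwann cell markers summed to 23.5 to 30.7 CPM in the HFD mice and 23.4 to 226 CPM in the HFD + RSV mice, and the erythroid markers to 361 to 476 and 507 to 1343 CPM, with HFD + RSV mouse 2 highest in both. Their part in the members' values was not tested. The 95% interval lay within ±0.5 for 73 of the 90 members.

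Rps25, a small subunit protein needed by several viral internal ribosome entry sites, had the largest difference. It was 54.8, 52.8, 52.7 and 42.8 CPM in the HFD mice and 86.0, 56.0, 91.0 and 105 CPM in the HFD + RSV mice. The groups did not overlap (all genes 1.9% above and 2.32% below), although the HFD + RSV mice varied widely and their lowest lay close to the highest HFD mouse. The log2FC was 0.74 (SE 0.28, edgeR adjusted P = 1.00). Rps25 also reached 99.6 CPM in control mouse 1 and 106 CPM in HFD + metformin mouse 4, so values of this size also occurred in mice of other groups. Rpl32, a large subunit protein, was 74.0, 70.1, 70.01 and 67.0 CPM in the HFD mice and 73.2, 88.0, 76.1 and 91.8 CPM in the HFD + RSV mice (log2FC 0.23, edgeR adjusted P = 1.00).

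**Figure D5:**
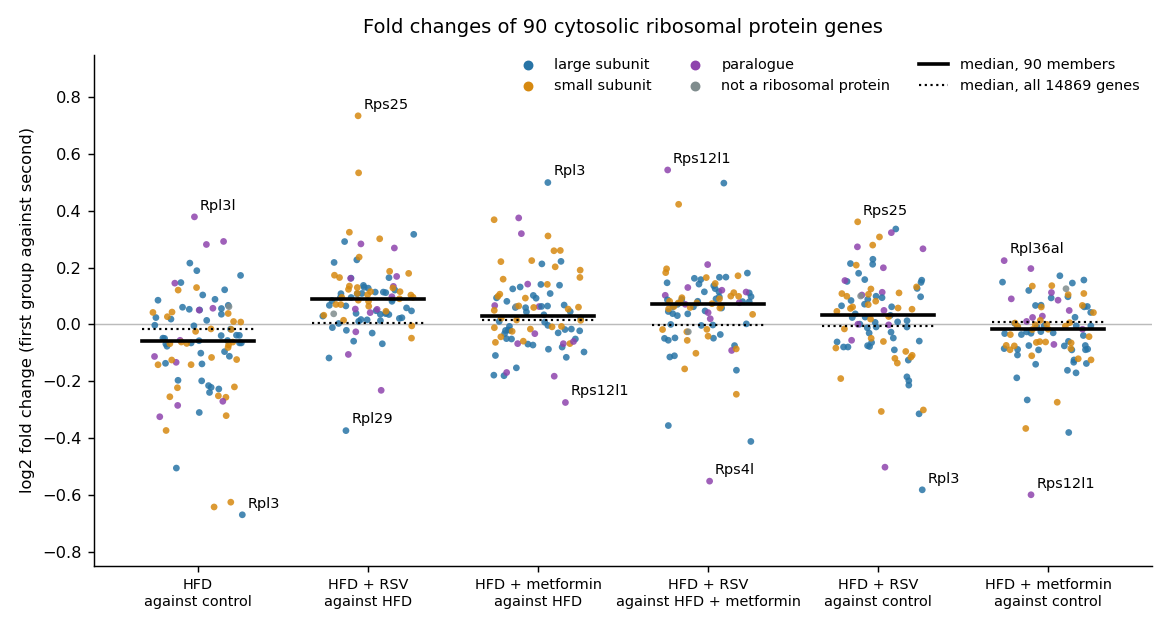
log2 fold change of each of the 90 members in the 6 comparisons, coloured by class, with the median of the members (solid line) and of all 14869 genes tested (dotted line) and the extreme members named. Points lie between -0.67 (Rpl3, HFD against control) and 0.74 (Rps25, HFD + RSV against HFD), and the medians lie within 0.1 of 0. Comparisons that share a group share its mice.

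In HFD + metformin against HFD, 0 members had an adjusted P < 0.05 in edgeR or DESeq2 (all genes 0.0135%). At an unadjusted P < 0.05 there was 1, Rpl3, which was higher (all genes 5.25% higher, 2.84% lower and 8.09% either), and 0 also passed 2-fold (all genes 1.66%). The median log2FC was 0.03 (all genes 0.02), with 51 of 90 above 0 (all genes 53.1%). The 5 erythroid markers were higher in the same comparison, 5 of 5 at an unadjusted P < 0.05 (median log2FC 1.12) and 0 at the adjusted P, and their part in the members' values was not tested. Total counts alone gave 82 above 0 as the median of all genes went to 0.14, and 46 of the members were above that median. Rpl10, a large subunit protein that joins late in assembly, was 6.57, 6.39, 6.36 and 6.24 CPM in the HFD mice and 8.47, 6.65, 7.19 and 7.53 CPM in the HFD + metformin mice, without overlap (all genes 1.84% above and 1.87% below) and with a log2FC of 0.22 (edgeR adjusted P = 0.629).

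Between the HFD + RSV and HFD + metformin groups, the 2 treatments given for the same time, 0 members passed the adjusted P in edgeR or DESeq2 (all genes 0%). At an unadjusted P < 0.05, 1 member was higher with RSV (all genes 1.67%) and 0 were lower (all genes 3.03%, either direction 4.71%), and 0 also passed 2-fold (all genes 0.908%). The median log2FC was 0.07 (all genes -0.0026), with 65 of 90 above 0 (all genes 49.4%), or 53 without HFD + RSV mouse 4. The 1 member was Rpl26, a large subunit protein near the exit of the peptide tunnel. It was 68.0, 50.01, 49.9 and 57.9 CPM with metformin and 72.5, 85.8, 73.3 and 87.2 CPM with RSV. The groups did not overlap (all genes 0.592% above and 0.942% below), and the log2FC was 0.50 (95% interval 0.16 to 0.83, edgeR adjusted P = 0.959). In the control mice it was 71.3, 49.3, 73.4 and 58.6 CPM and in the HFD mice 70.5, 65.5, 46.7 and 73.1 CPM, a range that overlaps both. The paralogue Rpl7l1 also did not overlap, at 22.7 to 24.02 CPM with metformin and 24.3 to 26.7 CPM with RSV (log2FC 0.12, edgeR adjusted P = 0.959).

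Against the control group, HFD + RSV had 0 members with an adjusted P < 0.05 in edgeR or DESeq2 (all genes 0.00673%), and 2 higher (all genes 7.91%) and 1 lower (all genes 8.05%, either direction 16%) at an unadjusted P < 0.05, with 0 also past 2-fold (all genes 2.5%). Rpl36al was the 1 member without overlap, above the control mice (all genes 5.49% above and 6.01% below). The lower one was Rpl3 (log2FC -0.58, edgeR adjusted P = 0.241), and the others were Rpl15 (0.23) and Rpl26 (0.34). HFD + metformin had 0 members by either measure in edgeR and 0 with an adjusted P < 0.05 in DESeq2, while 0% of all genes passed the adjusted and 9.56% the unadjusted P. No member of that comparison lacked overlap (0 of 90, all genes 1.98% above and 1.57% below) or passed 2-fold with the unadjusted P (all genes 1.49%). The median log2FC of the members was 0.03 with RSV (all genes -0.01), with 55 of 90 above 0 (all genes 49%), and -0.02 with metformin (all genes 0.01), with 35 above 0 (all genes 51.8%). With RSV these values changed to 42 above 0 without HFD + RSV mouse 4. Under total counts alone the median with RSV was -0.06 with 27 above 0, as the median of all genes went to -0.10, and 55 members were above that median. These values share control mice with each other and with HFD against control.

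The members with special roles were close between the groups. The stalk that recruits the translation factors is built from Rplp0, Rplp1 and Rplp2. Rplp0 was 245 to 321 CPM in the control mice, 248 to 284 in the HFD mice, 234 to 296 with metformin and 256 to 345 with RSV, and its log2FC was between -0.08 and 0.15 in the 6 comparisons. For Rplp1 the range of log2FC was -0.02 to 0.16 and for Rplp2 it was -0.10 to 0.06, with the smallest unadjusted P at 0.0814 and 0.279. Rpsa, a small subunit protein also known as the laminin receptor, was between -0.12 and 0.18, and Rps6, the target of the S6 kinases, between -0.14 and 0.10. Rps27a, made as a fusion with ubiquitin, was between -0.16 and 0.20.

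The paralogues other than Rpl3l and Rpl36al were no clearer. Rps27l, which is a p53 target, was 35.0, 32.7, 40.9 and 32.9 CPM in the control mice and 44.8, 44.3, 48.7 and 34.2 CPM in the HFD mice, with a log2FC of 0.28. It had a smallest unadjusted P of 0.0509 over the 6 comparisons, in HFD + RSV against control (log2FC 0.32). Rpl22l1 and its counterpart Rpl22 had log2FC values of -0.06 and 0.12 in HFD against control, and neither had an unadjusted P < 0.05 in any comparison. The copy Rps27rt had a log2FC of -0.11 in HFD against control and 0.16 in HFD + RSV against HFD (edgeR adjusted P = 1.00).

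Outside the name rule, Fau, the ubiquitin-like fusion that gives S30, had a log2FC of -0.11 in HFD against control, and Rack1, a scaffold on the small subunit, one of -0.02. The 78 mitochondrial ribosomal protein genes, which belong to the separate ribosome inside the mitochondrion, had 0 calls at the adjusted P in all 6 comparisons. Of all genes, 2.57% were called in HFD against control and 0.0135% or less in each other comparison, so the count of 0 says little there. The median log2FC of the 78 genes was 0.04 in HFD against control (all genes -0.02).

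Genes that build or serve the ribosome differed in HFD against control in a few cases, with all genes at 1.38% higher and 1.19% lower by the adjusted P. Of 38 translation initiation genes, 0 rose and 2 fell, and they were Eif4ebp1, an inhibitor of cap-dependent initiation (69.2 CPM in control mice and 29.9 CPM in HFD mice, log2FC -1.21, edgeR adjusted P = 0.0106), and the helicase Eif4a1 (log2FC -0.62, edgeR adjusted P = 0.0482). Of 83 ribosome biogenesis genes 1 fell, the large subunit assembly factor Ppan (log2FC -0.47, edgeR adjusted P = 0.0324). Of 12 elongation genes 1 fell, Eif5a2 (log2FC -0.70, edgeR adjusted P = 0.0465). Of 7 factors that bind ribosomal protein promoters 1 fell, Sp1 (log2FC -0.43, edgeR adjusted P = 0.0465). Of 20 mTORC1 and 5′ pyrimidine motif regulators and 10 further mRNAs of this class 0 passed. In the other 5 comparisons 0 genes of these lists passed (all genes 0.0135% or less in each). Eef1a1, the abundant elongation factor whose mRNA carries the same 5′ motif, averaged 404 CPM in control mice and 221 CPM in HFD mice (log2FC -0.87, edgeR adjusted P = 0.0914). The brown adipocyte markers summed to 25.4 to 743 CPM in the control mice and 1.3 to 3.44 CPM in the HFD mice. The part of other cell types in the values of these genes was not tested.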

How the data were processed

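Ribosomal RNA was depleted and paired-end libraries were sequenced by the authors, whose processing notes name fastp and HISAT2 and whose methods name StringTie 1.3.0. The authors deposited expected counts for each of 82388 mRNA transcripts and 16 mice, and beside each a deposited FPKM value, which divides the count by transcript length and library size. The counts are whole numbers, but StringTie divides fragments among overlapping transcripts and copies, so the level of a gene with near-identical copies is uncertain. Line-broken rows, 4 in number, were joined, and the lncRNA table gave only depth. Of the transcripts, 97.35% have the coordinates of GENCODE M21, so positions are GRCm38.

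Counts were summed per gene name, and genes with a mean of 10 or more over the 16 mice were kept (14869). edgeR 4.0.16 in R 4.3.3 was used with TMM scaling and a robust quasi-likelihood fit of all 16 mice, and P-values were adjusted by the Benjamini-Hochberg method over all genes. CPM are TMM-scaled, and log2 CPM use a prior count of 2. The common biological coefficient of variation was 0.259, so the spread between mice and not the depth of 20281801 to 34021101 counts set most intervals. Rpl3l, Rpl3 and their difference were also compared by exact two-sided permutation tests. The model was tested on simulated data. Alternatives were DESeq2 1.42.0, limma 3.58.1 on log2(FPKM + 0.1), other scalings and filters, the 8 mice compared alone, and leaving out each mouse. Named members were the paralogues with their counterparts, the stalk and ubiquitin-fusion genes, up to 8 members per direction and comparison with the smallest P, and the 5 highest and lowest by FPKM, and up to 4 genes per list. The members, lists and tests were chosen with earlier results of these data known. Eef1a1 and Rpl13a were named after their values were seen. A few genes that the rule names are not reported here.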

Additional observations from a re-analysis of the deposited data

Results flagged for a closer look

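In 18 of 244 groups of 4 mice (7.38%), the highest or lowest mouse stood apart by Dixon's criterion, which chance meets in about 1 in 20 groups. Of these, 11 were in the HFD group. No explanation was tested.

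HFD mouse 4 stood apart most often. It was highest for Rpl14 (62.6 CPM, others 54.0 to 54.6), Rpl29 (55.9 CPM, others 30.5 to 34.8), Rps27a (4.54 CPM, others 3.46 to 3.61), Rps3a3 (18.1 CPM, others 14.4 to 14.6) and Rps9 (113 CPM, others 93.9 to 94.2). It was lowest for Rpl22l1 (18.3 CPM, others 23.4 to 23.9). The members' share of its mRNA counts was 0.499%, against 0.412% to 0.423% in the other HFD mice. HFD mouse 3 was highest for Rpl11 (12.4 CPM, the others all 12.2) and lowest for Rps6 (19.2 CPM, others 22.2 to 22.8) and Rpsa (128 CPM, others 134 to 135). HFD mouse 1 was highest for Rps12l1 (0.777 CPM, others 0.498 to 0.530).

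In the HFD + metformin group, mouse 1 was lowest for Rpl13 (21.4 CPM, others 33.8 to 34.5) and Rps6 (21.9 CPM, others 23.5 to 23.8) and highest for Rpl29 (55.6 CPM, others 30.4 to 33.8), and mouse 3 was highest for Rps27a (5.79 CPM, others 3.79 to 3.95). HFD + RSV mouse 1 was lowest for Rpl29 (11.4 CPM, others 34.4 to 38.6), and mouse 4 was highest for Rps13 (2.64 CPM, others 1.56 to 1.70). Control mouse 1 was highest for Rps25 (99.6 CPM, others 49.9 to 57.7).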

How the results depend on the processing

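The count of members with an adjusted P < 0.05 was 0 in 125 of 126 alternative values, including every one that left out a mouse (lowest and highest 0 in each comparison). The exception was DESeq2 in HFD against control, with 1 member (Rpl3, log2FC -0.66, adjusted P = 0.0477). An unadjusted P < 0.05 at any fold gave 13 members in HFD against control (all genes 24.4%) and 2 in HFD + RSV against HFD (all genes 4.78%). It gave 1 in HFD + metformin against HFD (all genes 8.09%) and 1 in HFD + RSV against HFD + metformin (all genes 4.71%). In HFD + RSV against control it gave 3 (all genes 16%). Leaving out 1 mouse, the first of these counts was 4 (without control mouse 3) to 12, and the count for HFD + RSV against HFD was 0 without HFD + RSV mouse 4. HFD + RSV against HFD + metformin had 10 without HFD + metformin mouse 4, and HFD + RSV against control had 9 without control mouse 4. The shares of all genes in the fits without a mouse are not given here, so these changes cannot be read as particular to the members. The cause was not tested.

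Of 4304 alternative values of named members, 1 was on the other side of the adjusted P threshold (Rpl3, above) and 218 had the other sign, over 86 pairs of member and comparison. Of these 218, 1 had an unadjusted P < 0.05 as reported, Rpl15 in HFD + RSV against control, with a log2FC of -0.0226 by limma on log2 FPKM. In the alternatives 0 of the 218 had an unadjusted P < 0.05, so the direction of members with small differences is not settled. The cause was not tested. The members' median log2FC changed sign in HFD + metformin against HFD without HFD + metformin mouse 4 (-0.02), in HFD + metformin against control without control mouse 4 (0.02) or HFD + metformin mouse 1 (0.01), and in HFD + RSV against control without HFD + RSV mouse 4 (-0.02), under total counts alone (-0.06) and by limma on log2 FPKM (-0.06). Adding pseudogene counts, using coding transcripts only, and leaving out control mouse 3 with HFD + metformin mouse 3 were chosen after seeing the data. No paired analysis was possible because the replicate numbers follow sample order and the labels' mouse numbers do not link mice across groups. The spread between mice limits small differences, with a median 95% half-width of 0.24 on the log2 scale.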
